A study of Mus musculus with 8 samples.

Results

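Potassium channel genes were compared between control and dcKO_hGFAP-Cre cortices at P3. The set holds every protein-coding gene whose symbol starts with Kcn except Kcnj8, Kcnj13 and Kcnk9, which is 91 of the 48709 genes counted. Of these, 74 encode pore-forming subunits and 17 encode auxiliary subunits. The rule uses gene names and no measured value, although it was written with earlier results of these data known. RNA was taken from the cortex (dorsal telencephalon, dTel) of 4 mutant and 4 control animals on a C57BL/6J background and sequenced, and the deposited read counts per gene were compared between the groups. The mutants were BAF155 fl/fl, BAF170 fl/fl and hGFAP-Cre pos/+. They therefore lack both scaffolding subunits of the BAF (mSWI/SNF) chromatin remodeling complex in cells where Cre has acted. The controls were BAF155 fl/+, BAF170 fl/+ and hGFAP-Cre pos/+ according to the study's methods, and the labels call them control or WT. Both groups thus carried Cre and at least 1 floxed copy of each gene. In hGFAP-Cre mice a human GFAP promoter drives Cre in radial glia of the dorsal telencephalon and so in the neurons and glia derived from them, whereas interneurons, microglia and vessels of the cortex come from other lineages. The mutants die soon after birth.

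Potassium channels let potassium ions leave or, in some families, enter the cell, and they set the resting potential, end the action potential and fix how often a neuron fires. A voltage-gated, inwardly rectifying or ion-activated channel is built from subunits that each bring a pore loop, while each two-pore subunit brings a pair of them. Auxiliary subunits form no pore and change the gating or the surface level of their partners. In the newborn cortex the resting conductances and the M-current of Kv7 channels restrain immature neurons, and astrocytes begin to clear potassium from the extracellular space through inward rectifiers.

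The pore loop carries the selectivity filter, the stretch that lets potassium pass and holds back sodium, and its codons are shown for the members on which the results below turn because they tell pore-forming from auxiliary members and the Kcnh family from the other voltage-gated families. In the GENCODE vM21 coding sequences (mm10), in-frame codons of the filter signature, threonine or serine, any residue, glycine, tyrosine or phenylalanine, and glycine, were present in 74 of 74 pore-forming members and in 0 of 17 auxiliary members. They occurred once in 64 members and at 2 places in 10, all of which were two-pore genes. The two-pore genes Kcnk1, Kcnk6 and Kcnk7 matched only once, so the number of matches does not mark every two-pore gene. Capitals mark these 5 codons, and each run of 45 bases is given 5′ to 3′ on the coding strand:
Kcng1 (chr2:168262626-168262670, minus strand): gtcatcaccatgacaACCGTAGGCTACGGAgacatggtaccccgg
Kcnh1 (chr1:192337739-192337783, plus strand): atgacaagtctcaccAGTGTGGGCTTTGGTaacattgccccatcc
Kcnh3 (chr15:99232914-99232958, plus strand): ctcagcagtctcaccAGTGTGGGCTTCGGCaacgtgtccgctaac
Kcnh4 (chr11:100750278-100750322, minus strand): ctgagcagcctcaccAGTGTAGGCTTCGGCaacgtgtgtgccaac
Kcnn1 (chr8:70850642-70850686, minus strand): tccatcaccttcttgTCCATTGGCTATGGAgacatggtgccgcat
Kcnk3, first loop (chr5:30588578-30621913, plus strand, across an intron): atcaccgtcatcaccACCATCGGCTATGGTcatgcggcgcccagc
Kcnk3, second loop (chr5:30622187-30622231, plus strand): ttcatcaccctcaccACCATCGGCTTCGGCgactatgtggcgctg
The fourth codon of the signature was a phenylalanine codon in 8 of 8 Kcnh genes, as the 3 Kcnh sequences show, and a tyrosine codon in Kcng1 and Kcnn1. Kcnk3 has a tyrosine codon in its first loop and a phenylalanine codon in its second. Outside the Kcnh and Kcnk families, 4 members had a phenylalanine codon there (Kcnu1, Kcnt1, Kcnt2 and Kcnj11).

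Total counts per library were 21126713 to 31805395 in control and 22002784 to 32110285 in mutant cortex. The floxed genes Smarcc1 (BAF155) and Smarcc2 (BAF170) were lower in every mutant than in every control, with log2 fold changes of -0.97 and -0.77. The cortical markers Tbr1 and Emx1 were detected in all 8 libraries. Emx1 was nevertheless lower in every mutant than in every control (log2 fold change -2.13), while Tbr1 overlapped between the groups (0.07). Each lane held libraries of both groups, replicates 1 and 2 being on lane 5, the third replicates on lane 6 and the last on lane 7. Mitochondrial transcripts made up 2.06% to 3.23% of control counts and 3.57% to 5.47% of mutant counts. Mutant replicate 3 stood apart in astrocyte and radial glia markers, and mutant replicates 1 and 2 in choroid plexus markers, and these values are given beside the genes they touch. Coordinates are those of mm10 in GENCODE vM21. Levels are in CPM, counts scaled to a common library total after TMM normalization, and a level compared between genes is in RPKM, which is CPM per kilobase of merged exons. A gene was called when the adjusted p of edgeR's quasi-likelihood test over all 16525 genes tested was under 0.05, and fold changes are log2 of mutant over control with their standard error.

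More potassium channel genes were lower than higher in the mutant cortex. Of the 76 members with enough counts to be tested, 37 fell (48.7%, against 18.9% of all genes tested), 9 rose (11.8%, against 18.6% of all genes), and 30 were not called. The same shares of all genes apply to the counts by subfamily and by list below, most of which hold few genes. The median log2 fold change was -0.35 over the members and 0.02 over all genes. Every mutant lay below every control for 34 of the members tested (17.7% of all genes did so) and above every control for 8 (16.7% of all genes). For each of these the exact two-sided permutation p was 0.0286, the smallest that 4 libraries against 4 allow. A called change of at least 1 on the log2 scale was present in 9 members that fell and 2 that rose, while 7.21% of all genes reached this size in either direction. Summed over the members, control libraries held 2520, 2654, 2620 and 2580 CPM and mutant libraries 1940, 1855, 1972 and 2307 CPM, so every mutant sum was below every control sum. The counts were 3 higher and 21 lower without mutant replicates 1 and 2, a setting chosen after seeing the data that leaves 2 mutant libraries. Under it 3.85% of the members were higher and 26.9% lower, against 8.06% and 9.18% of all genes.

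**Figure D1:**
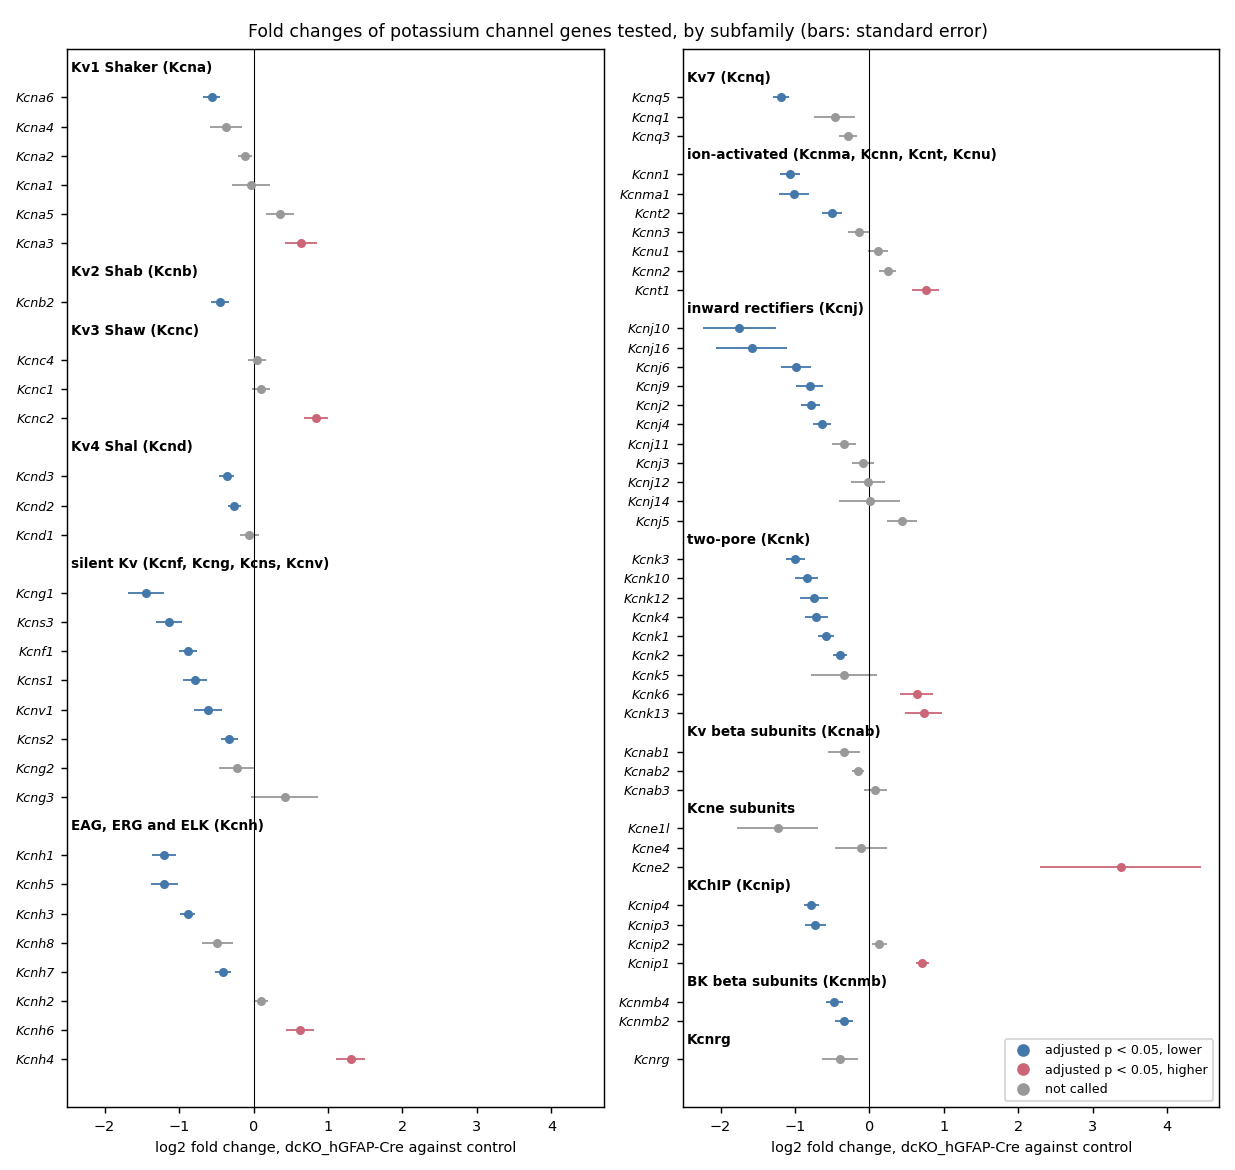
Log2 fold change (horizontal axis, dcKO_hGFAP-Cre against control) with its standard error for 72 of the 76 potassium channel genes tested, grouped by subfamily. Blue points are 34 members that fell, red points the 9 that rose and grey points 29 not called. No red point lies in the inward rectifier, Kv7, silent Kv, Kv2, Kv4, Kv beta, BK beta or Kcnrg groups.

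Markers of several cell types also differed between the groups, where 18.9% of all genes tested were lower and 18.6% higher. Of the marker lists, 6 of 7 cortical projection neuron genes were lower, with summed levels of 1675 to 1810 CPM in controls and 826.8 to 981.1 CPM in mutants. Oligodendrocyte precursor markers were lower for 6 of 6 genes (422 to 456.3 against 234.2 to 311.8 CPM). Conversely, 7 of 8 GABAergic interneuron genes (613.5 to 641.7 against 949.7 to 1018 CPM), 5 of 10 striatal projection neuron genes (222.9 to 321.4 against 448.7 to 934.6 CPM) and 5 of 7 microglia genes (94.97 to 130.2 against 163.8 to 188.1 CPM) were higher. Endothelial and mural markers had 3 of 8 genes lower, and thalamus or midbrain markers 3 of 7 higher and 2 lower. The part of these shifts in the channel results was not tested, and in bulk tissue fewer cells of a type and less RNA per cell cannot be told apart.

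The Kv7 family (Kcnq) carries the M-current that damps repetitive firing. Kcnq5 (ENSMUSG00000028033, chr1:21398403-21961942) was at 64.8, 76.8, 62.1 and 60.1 CPM in controls and 29.6, 24.4, 32.9 and 28.95 CPM in mutants. The groups were far apart, and this was the smallest adjusted p of any member (log2 fold change -1.19 ± 0.11, adjusted p 9.58e-06). Kcnq3, a subunit of the M-channel, had 177.0, 189.9, 163.9 and 171.2 CPM in controls and 133, 122.5, 131.3 and 187.3 CPM in mutants. Mutant replicate 4 was within the control range and the gene was not called (-0.29, adjusted p 0.0768), but without that library its log2 fold change was -0.43 with an adjusted p of 0.00129. Kcnq1, a channel of heart and epithelia, was at about 1 CPM and was not called (-0.47).

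The balance within families was read as ratios of RPKM in each library. The 5 ratios given with their genes below were chosen after the values had been seen and are given without a test. As a share of the summed Kv7 RPKM, Kcnq5 made up 15.2% to 18.6% of each control and 8.86% to 12.6% of each mutant library, without overlap.

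The Kcnh family holds the EAG (Kcnh1, Kcnh5), ERG (Kcnh2, Kcnh6, Kcnh7) and ELK (Kcnh3, Kcnh4, Kcnh8) channels, voltage-gated channels whose filter has the phenylalanine codon shown above. It had members moving in opposite directions, with 4 of 8 lower and 2 higher. Both EAG genes fell. Kcnh1 (ENSMUSG00000058248, chr1:192190774-192510159) was at 30.4, 34.6, 33.9 and 36.2 CPM in controls and 16.4, 9.32, 17.6 and 15.2 CPM in mutants, lowest in mutant replicate 2 (log2 fold change -1.21 ± 0.16, adjusted p 1.72e-04). Kcnh5 (ENSMUSG00000034402, chr12:74897220-75177332) had 5.15, 6.51, 7.07 and 7.22 CPM in controls and 3.42, 2.29, 2.49 and 3.11 CPM in mutants. Its groups did not overlap either, and the size of the fall was close to that of Kcnh1 (log2 fold change -1.20 ± 0.18, adjusted p 3.24e-04).

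The ELK genes parted. Kcnh3 (ENSMUSG00000037579, chr15:99224861-99242817), a channel of forebrain projection neurons, was the most expressed Kcnh gene per length in control cortex, at 13.6 RPKM. It held 77.1, 69.6, 80.5 and 86.2 CPM in control and 36.8, 42.8, 41.5 and 48.8 CPM in mutant libraries, without overlap (log2 fold change -0.88 ± 0.10, adjusted p 4.80e-05). Kcnh4 (ENSMUSG00000035355, chr11:100740376-100759942), its close relative, had 13.5, 14.3, 10.9 and 13.2 CPM in controls and 34.4, 23.8, 24.3 and 45.04 CPM in mutants. Each mutant exceeded each control, most in replicates 1 and 4, and Kcnh4 rose by the largest amount of any pore-forming member (log2 fold change 1.30 ± 0.20, adjusted p 4.59e-04). Without mutant replicate 4 the log2 fold change was 1.098 with an adjusted p of 0.000209. The ratio of Kcnh4 to Kcnh3 in RPKM was 0.255, 0.300, 0.197 and 0.222 in controls and 1.36, 0.809, 0.854 and 1.34 in mutants, so the gene with the lower level in control cortex exceeded the other in 2 mutant libraries. Striatal and interneuron marker sums were higher in every mutant than in any control. In mutants 1 to 4 the striatal sums were 889.7, 448.7, 934.6 and 612.1 CPM and the interneuron sums 986.7, 1018, 963 and 949.7 CPM. Within the striatal list, Ppp1r1b alone held 34.2 to 49.1 CPM in controls and 270.6 to 343.3 CPM in mutants. Only 2 of the 10 striatal genes had every mutant above every control, and Drd1 was not called (-0.17). The part of these markers in the Kcnh4 result was not tested. Kcnh8 was not called (-0.49, adjusted p 0.0912), although without control replicate 1 it was (log2 fold change -0.60, adjusted p 0.0469).

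Among the ERG genes, Kcnh7 fell (-0.41, adjusted p 0.00817) and Kcnh2, the channel known from cardiac long QT syndrome, was not called (0.10, adjusted p 0.432). Kcnh6 (ENSMUSG00000001901, chr11:106008124-106034549) was scarce, with 2.58, 1.78, 2.29 and 2.395 CPM in controls and 3.85, 2.97, 3.21 and 3.92 CPM in mutants. The mutants were all above the controls (log2 fold change 0.62 ± 0.18, adjusted p 0.0182), but the call was lost without mutant replicate 1 or control replicate 2, with an adjusted p of up to 0.0576.

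The promoters of Kcnh1, an EAG gene that fell, and Kcnh4, an ELK gene that rose, are shown because the pair moved in opposite directions while both windows hold many CpG sites. RefSeq (GRCm38.p6) promoters were matched for 67 of the 91 members, and the 250 bases before the start are printed with CG dinucleotides in capitals:
Kcnh1 (chr1:192190527-192190776, plus strand): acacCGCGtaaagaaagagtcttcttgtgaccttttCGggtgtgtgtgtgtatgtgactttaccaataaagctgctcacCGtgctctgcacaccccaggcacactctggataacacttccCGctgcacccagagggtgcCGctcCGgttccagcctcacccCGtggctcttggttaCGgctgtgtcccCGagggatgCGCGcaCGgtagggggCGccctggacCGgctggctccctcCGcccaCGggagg
Kcnh4 (chr11:100759779-100760028, minus strand): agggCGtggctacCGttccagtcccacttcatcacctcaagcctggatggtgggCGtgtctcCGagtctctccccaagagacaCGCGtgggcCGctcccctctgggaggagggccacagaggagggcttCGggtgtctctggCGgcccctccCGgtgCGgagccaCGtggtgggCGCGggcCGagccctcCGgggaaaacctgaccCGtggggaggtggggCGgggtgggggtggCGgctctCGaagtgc
There were 17 CG dinucleotides in the Kcnh1 window and 20 in the Kcnh4 window. The median was 10 over the 28 members that fell, 9 over the 7 that rose and 12 over the 19 tested and not called. It was 6 over all 27025 RefSeq promoters, which were not limited to genes counted or tested here. The E-box CAGATG, searched on both strands, was found in 14.3% of promoters of members that fell, 14.3% of those that rose and 14.5% of all promoters. The TATA box TATAAA was found in 1.49% of the 67 members' promoters and 13.0% of all, and the cAMP response half-site TGACG in 19.4% and 17.8%. These matches describe letters in the window and were not tested.

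The silent Kv genes (Kcnf, Kcng, Kcns, Kcnv), whose subunits form no current alone and modify the Kv2 channels they join, had the lowest median of the 15 subfamilies, -0.70, with 6 of 8 lower and 0 higher by edgeR (0 higher also at an unadjusted p under 0.05 and by DESeq2). Of all genes tested, 18.9% were lower and 18.6% higher by edgeR. Kcng1 (ENSMUSG00000074575, chr2:168260117-168281736) was at 36.04, 53.7, 63.2 and 66.3 CPM in controls and 18.9, 13.1, 22.5 and 25.9 CPM in mutants. Controls varied about their mean by 13.6 CPM (SD, n = 4), with replicate 1 lowest, yet all stayed above the mutants (log2 fold change -1.44 ± 0.24, adjusted p 0.00158). Kcns3 (ENSMUSG00000043673, chr12:11090202-11151056) had 5.94, 6.06, 6.18 and 6.77 CPM in controls and 2.52, 2.92, 3.62 and 2.26 CPM in mutants, and the ranges were clear of each other (log2 fold change -1.14 ± 0.17, adjusted p 3.37e-04). Kcnf1 (ENSMUSG00000051726, chr12:17172100-17176888), the most expressed silent Kv gene per length at 14.9 RPKM in control cortex, was at 61.7, 72.1, 82.01 and 69.01 CPM in controls and 35.4, 33.3, 46.2 and 39.7 CPM in mutants. It too fell with no overlap (log2 fold change -0.88 ± 0.12, adjusted p 1.36e-04). Kcns1 (-0.78, adjusted p 0.00301), Kcnv1 (-0.61, adjusted p 0.0244) and Kcns2 (-0.33, adjusted p 0.0384) completed the 6. Kcnv1 lost its call without mutant replicate 1, 2 or 3 or control replicate 2, 3 or 4 (adjusted p up to 0.0688), and Kcns2 without the same libraries (up to 0.105) and with library totals (log2 fold change -0.21, adjusted p 0.159). Kcng2 and Kcng3, both under 2 CPM, were not called.

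Of the Kv2 (Shab) family, with which they assemble and which carries much of the delayed rectifier current of cortical neurons, Kcnb2 fell with no overlap (-0.46, adjusted p 0.0115).

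Kv1 (Shaker) genes encode low-threshold channels of axons, and they moved singly: of 6 tested, 1 fell, 1 rose and 4 were not called. The median, -0.08, became 0.04 with library totals in place of TMM scaling. Kcna6 (ENSMUSG00000038077, chr6:126708329-126740674), the most expressed per length at 11.4 RPKM in controls, had 54.1, 75.3, 69.1 and 72.4 CPM in controls and 41.7, 41.8, 47.9 and 52.4 CPM in mutants. It fell, every mutant being below every control (log2 fold change -0.56 ± 0.11, adjusted p 0.00252). Kcna3 (ENSMUSG00000047959, chr3:107036169-107038070), an axonal channel that microglia and lymphocytes also use, had 9.39, 8.38, 7.902 and 7.15 CPM in controls and 13.2, 10.6, 8.36 and 18.7 CPM in mutants. Mutant replicate 3 lay inside the control range and replicate 4 far above it (log2 fold change 0.63 ± 0.21, adjusted p 0.0343). Leaving out mutant replicate 1 or 4 or control replicate 2, 3 or 4 ended this call, with an adjusted p of up to 0.0982. Kcna1, Kcna2, Kcna4 and Kcna5 had log2 fold changes of -0.04, -0.12, -0.38 and 0.36 and were not called.

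Kv3 (Shaw) channels allow fast firing and are typical of parvalbumin and other interneurons. Kcnc2 (ENSMUSG00000035681, chr10:112271121-112467024) was at 23.4, 24.1, 21.9 and 24.3 CPM in controls and 41.7, 45.5, 27.7 and 52.4 CPM in mutants. The mutants were all higher, with replicate 3 nearest to the controls (log2 fold change 0.84 ± 0.16, adjusted p 0.00164), and without mutant replicate 4 the log2 fold change was 0.72 with an adjusted p of 0.00277. Kcnc4 (ENSMUSG00000027895, chr3:107438303-107459552), the most expressed of the family per length at 7.82 RPKM in controls, had 27.2, 27.5, 31.9 and 28.1 CPM in controls and 24.97, 30.9, 26.6 and 36.3 CPM in mutants. Its groups overlapped throughout (log2 fold change 0.05 ± 0.12, adjusted p 0.766). Kcnc1 was not called (0.10). The interneuron marker sums given above were higher in every mutant, and their part in the Kcnc2 result was not tested.

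Kv4 (Shal) channels carry the A-type current of dendrites together with the KChIP subunits (Kcnip). Kcnd2 (ENSMUSG00000060882, chr6:21215503-21729805) was among the most expressed members per length, with 18.9 RPKM in control and 15.8 RPKM in mutant cortex. It had 90.3, 111, 98.3 and 89.5 CPM in controls and 85.9, 79.4, 75.97 and 84.1 CPM in mutants. The mutants were all lower, but by a small margin (log2 fold change -0.26 ± 0.09, adjusted p 0.0318). The call was lost without mutant replicate 2 or 3 or control replicate 2 or 3, with an adjusted p of up to 0.0882, and with library totals in place of TMM (log2 fold change -0.14, adjusted p 0.224). Kcnd3 fell as well (-0.36, adjusted p 0.0172) and lost its call without mutant replicate 1 or control replicate 2 (up to 0.0515) and with library totals (adjusted p 0.0963), and Kcnd1 was not called (-0.06).

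The KChIP genes moved in both directions, with 2 lower and 1 higher of 4. Kcnip1 (ENSMUSG00000053519, chr11:33629339-33993152), which is prominent in interneurons, was at 42.5, 44.02, 45.8 and 45.6 CPM in controls and 69.3, 84.1, 67.3 and 70.9 CPM in mutants. The controls were tightly grouped and every mutant was well above them (log2 fold change 0.71 ± 0.09, adjusted p 7.96e-05). Kcnip3, also known as the calcium-dependent repressor DREAM (-0.73, adjusted p 0.00212), and Kcnip4 (-0.78, adjusted p 8.60e-05) fell. Kcnip2 (ENSMUSG00000025221, chr19:45791839-45816061) was the most expressed member of the whole set per length, at 24.3 RPKM in control and 26.6 RPKM in mutant cortex. With 77.5, 84.98, 81.01 and 93.7 CPM in controls and 81.3, 88.3, 111 and 89.8 CPM in mutants it overlapped between the groups and was not called (log2 fold change 0.13 ± 0.10, adjusted p 0.316), although it was with library totals. The RPKM ratio of Kcnip1 to Kcnd2 was 0.392, 0.329, 0.387 and 0.423 in controls and 0.670, 0.880, 0.736 and 0.700 in mutants and did not overlap. As for Kcnh4, the part of the interneuron and striatal markers in the Kcnip1 result was not tested.

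**Figure D2:**
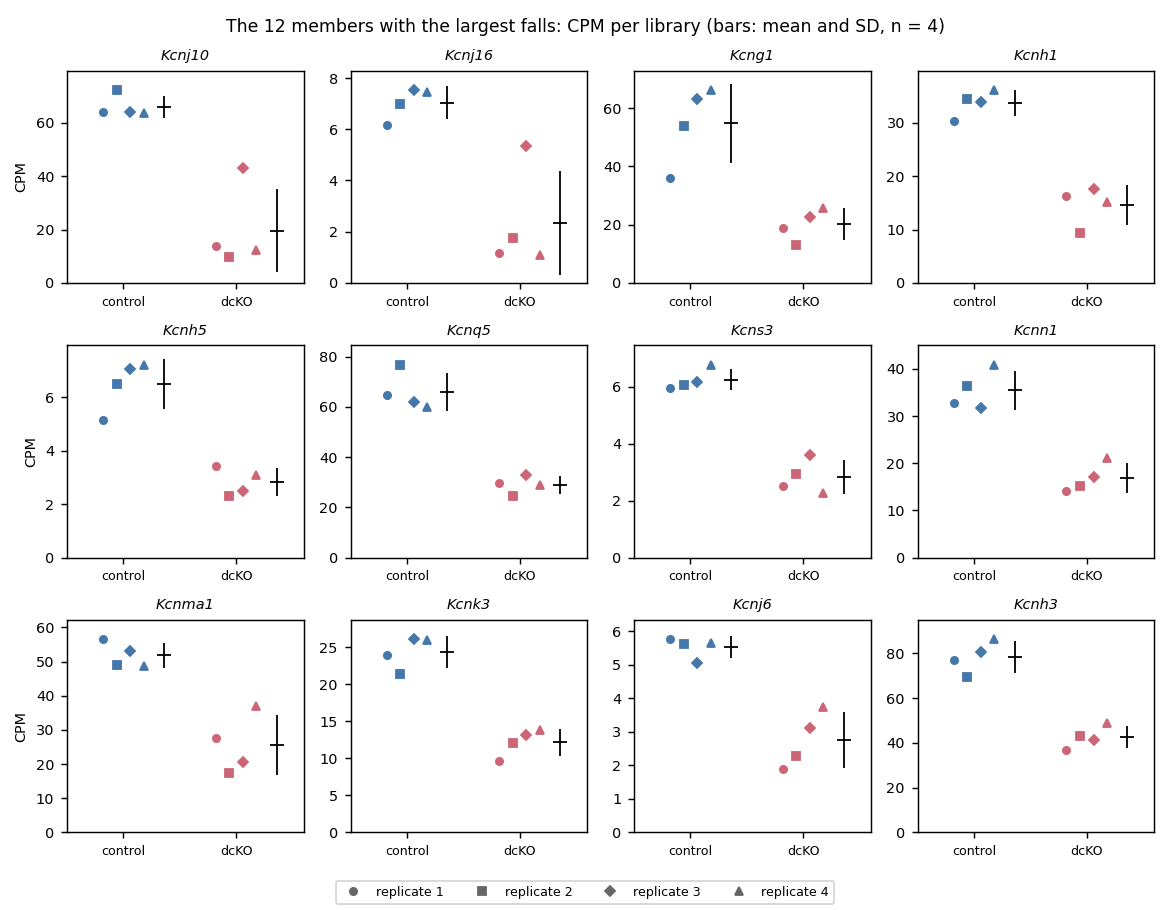
CPM (vertical axis, from 0) in each control and dcKO_hGFAP-Cre library for the 12 called members of at least 1 CPM with the largest falls; marker shapes give the replicate and black bars the mean and SD (n = 4). Mutants lie below controls in every panel, and mutant replicate 3 (diamond) is the highest mutant for Kcnj10 and Kcnj16.

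The Kcnma, Kcnn, Kcnt and Kcnu genes, which encode channels opened by calcium or sodium and the pH-sensitive channel Kcnu1, fell in 3 of 7 tested members and rose in 1, with a median of -0.14 that ranged from -0.51 to 0.01 over the alternatives. Kcnma1 (ENSMUSG00000063142, chr14:23289431-24014491), the large-conductance BK channel that shortens action potentials, had 56.5, 49.0, 53.1 and 48.6 CPM in controls and 27.5, 17.3, 20.6 and 36.95 CPM in mutants. All mutants were lower, replicate 4 the least so (log2 fold change -1.01 ± 0.20, adjusted p 0.00338). Kcnn1 (ENSMUSG00000002908, chr8:70842049-70863258), the small-conductance calcium-activated channel SK1, was at 32.7, 36.4, 31.8 and 40.9 CPM in controls and 14.02, 15.2, 17.2 and 21.2 CPM in mutants. Its groups were clearly separate (log2 fold change -1.07 ± 0.13, adjusted p 9.70e-05), while the other SK genes Kcnn2 (0.24, adjusted p 0.107) and Kcnn3 (-0.14, adjusted p 0.452) were not called. Kcnn2 was called higher without mutant replicate 3 (log2 fold change 0.33, adjusted p 0.0236) and with library totals. The sodium-activated pair went opposite ways. Kcnt1 (ENSMUSG00000058740, chr2:25863734-25918273), the most expressed of these genes per length over the 8 libraries, had 64.7, 48.2, 40.4 and 42.5 CPM in controls and 94.1, 71.7, 62.9 and 101 CPM in mutants. Control replicate 1 exceeded mutant replicate 3, so the groups overlapped, and the gene rose (log2 fold change 0.75 ± 0.18, adjusted p 0.00888). Kcnt2 fell (-0.50, adjusted p 0.0125), and Kcnu1, the channel of sperm, was not called (0.12).

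The BK auxiliary genes also fell in both tested members. Kcnmb4 (ENSMUSG00000054934, chr10:116417861-116473878), the neuronal beta subunit, had 14.2, 14.1, 14.4 and 13.4 CPM in controls and 8.76, 10.3, 11.9 and 9.54 CPM in mutants, with no overlap (log2 fold change -0.47 ± 0.12, adjusted p 0.00824). Kcnmb2 fell (-0.34, adjusted p 0.0383), and lost its call without mutant replicate 1, 3 or 4 or control replicate 2, 3 or 4 (adjusted p up to 0.123). Its call was also lost with library totals (log2 fold change -0.22, adjusted p 0.146) and with the lane as a block (adjusted p 0.0512). The ratio of Kcnmb4 to Kcnma1 overlapped between the groups, at 1.28 to 1.47 in controls and 1.32 to 3.04 in mutants.

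Inward rectifiers (Kcnj) hold the membrane near the potassium equilibrium. Of 11 tested, 6 fell and 0 rose by edgeR and by DESeq2, and the median was -0.64. By edgeR, 18.9% of all genes tested were lower and 18.6% higher. At an unadjusted p under 0.05 only Kcnj5 was higher. The glial pair had the largest fitted falls among them, which was not tested against the other members. Kcnj10 (ENSMUSG00000044708, chr1:172341210-172374085) encodes Kir4.1, the channel through which astrocytes take up potassium, and Kcnj16 (ENSMUSG00000051497, chr11:110968033-111027968) encodes Kir5.1, which joins it. Kcnj10 was at 64.2, 72.3, 63.9 and 63.7 CPM in controls and 13.6, 9.58, 42.9 and 12.3 CPM in mutants. Mutant replicate 3 was far above the other mutants but below the controls (log2 fold change -1.75 ± 0.49, adjusted p 0.0288). Kcnj16 had 6.17, 7, 7.54 and 7.46 CPM in controls and 1.15, 1.74, 5.36 and 1.09 CPM in mutants, with the same library nearest to the controls (log2 fold change -1.58 ± 0.47, adjusted p 0.0282). The ratio of Kcnj16 to Kcnj10 was 0.132 to 0.162 in controls and 0.116 to 0.249 in mutants, and the ranges overlapped.

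These calls depended on single libraries. Without mutant replicate 3 the log2 fold changes were -2.48 ± 0.12 for Kcnj10 (adjusted p 7.58e-08) and -2.42 ± 0.21 for Kcnj16 (adjusted p 3.56e-06). Without mutant replicate 1 or 4 or any one control Kcnj10 lost its call (adjusted p up to 0.0703), and Kcnj16 did so without mutant replicate 2 or 4 or control replicate 2, 3 or 4 (up to 0.0715). The summed astrocyte and radial glia markers were 1240 to 1368 CPM in controls and 804.3, 724.4, 1712 and 692.7 CPM in mutants 1 to 4, so the library with the highest Kcnj10 among the mutants also had the highest marker sum of all 8. Of the 7 markers, 1 was called, Slc1a2, which was lower. Markers of oligodendrocyte precursors, also glial cells, summed to 422 to 456.3 CPM in controls. In mutants 1 to 4 they summed to 250.5, 240.7, 311.8 and 234.2 CPM. The part of glial content of either kind in the Kcnj10 and Kcnj16 results was not tested.

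The neuronal inward rectifiers were lower in all 4 mutants where they were called. Kcnj6 (ENSMUSG00000043301, chr16:94748636-94997701), the GIRK2 subunit that G protein-coupled receptors open, had 5.75, 5.62, 5.05 and 5.66 CPM in controls and 1.88, 2.29, 3.104 and 3.74 CPM in mutants. No mutant reached a control (log2 fold change -0.99 ± 0.21, adjusted p 0.00271). Kcnj4 (ENSMUSG00000044216, chr15:79483714-79505241), Kir2.3, was the most expressed inward rectifier per length over the 8 libraries, with 11.2 RPKM in controls and 7.21 RPKM in mutants. It held 22.3, 21.7, 26.4 and 26.0 CPM in controls and 16.6, 13.1, 17.98 and 14.3 CPM in mutants. Again no mutant reached a control (log2 fold change -0.64 ± 0.12, adjusted p 0.00173). Kcnj9, the GIRK3 subunit (-0.80, adjusted p 0.00505), and Kcnj2, the Kir2.1 channel (-0.79, adjusted p 6.69e-04), fell as well. Kcnj9 lies next to Kcnj10 on chromosome 1, and Kcnj2 next to Kcnj16 on chromosome 11. By contrast Kcnj3, the GIRK1 subunit with which Kcnj6 assembles, was not called (-0.08, adjusted p 0.673). The RPKM ratio of Kcnj6 to Kcnj3 was 0.137, 0.109, 0.0932 and 0.107 in controls and 0.0473, 0.0514, 0.0744 and 0.0592 in mutants, lower in each. For Kcnj5 every mutant was above every control, but it was not called (0.44, adjusted p 0.1001). Kcnj11, Kcnj12 and Kcnj14 were not called either, and Kcnj11 was called lower without mutant replicate 4 (log2 fold change -0.50, adjusted p 0.0107) and with the lane as a block (-0.36, adjusted p 0.0376).

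**Figure D3:**
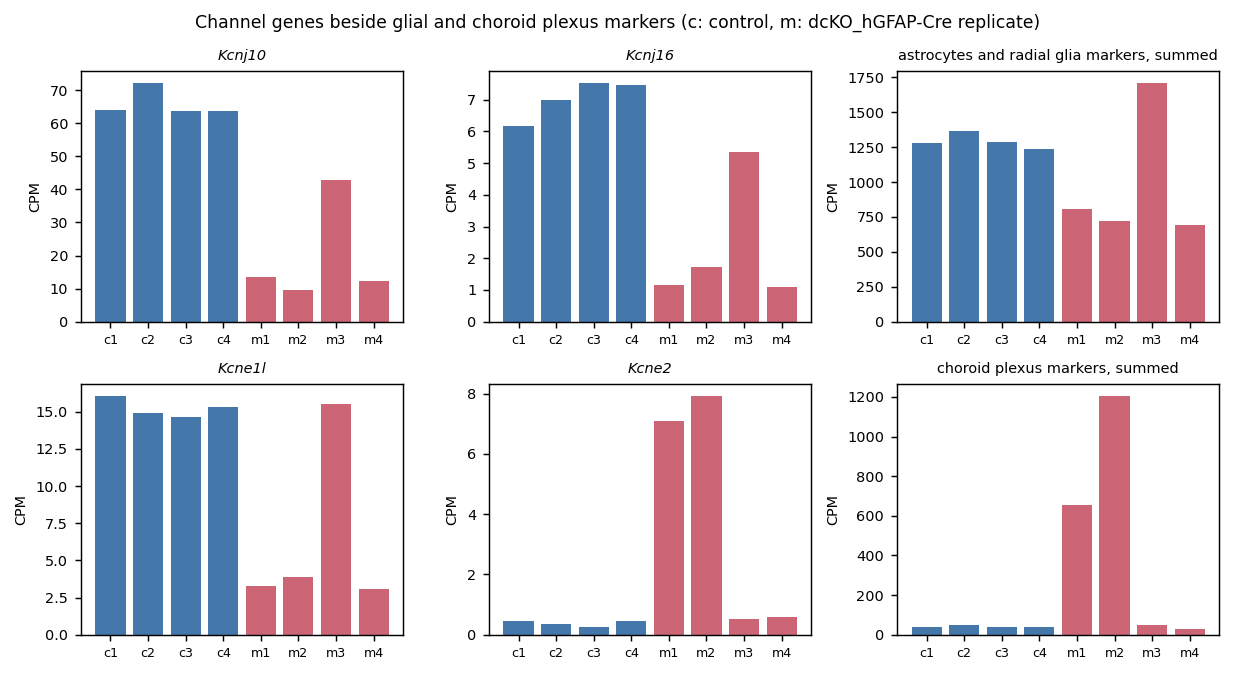
CPM (vertical axes, from 0) in control replicates 1 to 4 (blue, c1 to c4) and dcKO_hGFAP-Cre replicates 1 to 4 (red, m1 to m4) for Kcnj10, Kcnj16, Kcne1l and Kcne2, beside the summed CPM of 7 astrocyte and radial glia markers and 5 choroid plexus markers. Mutant replicate 3 is the highest mutant for the first 3 genes and for the glial markers, and mutant replicates 1 and 2 for Kcne2 and the choroid plexus markers.

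The two-pore genes (Kcnk), which provide the leak current that sets the resting potential, were called in 8 of 9 tested members, 6 lower and 2 higher. Of all genes tested, 37.5% were called, 18.9% lower and 18.6% higher. Kcnk3 (ENSMUSG00000049265, chr5:30588170-30625271), the acid-sensitive TASK1 channel, had 23.9, 21.3, 26.03 and 25.9 CPM in controls and 9.62, 12.1, 13.1 and 13.8 CPM in mutants. Both ranges were narrow and apart (log2 fold change -0.997 ± 0.13, adjusted p 1.02e-04). Kcnk1 (ENSMUSG00000033998, chr8:125995170-126030685), the TWIK1 channel and the most expressed per length at 12.3 RPKM in controls, was at 23.8, 26.7, 31.01 and 28.2 CPM in controls and 18.3, 16.4, 20.7 and 17.8 CPM in mutants. Every mutant was again below every control (log2 fold change -0.58 ± 0.11, adjusted p 0.00162). The mechanically and lipid gated channels Kcnk10 (-0.84, adjusted p 0.00125), Kcnk4 (-0.71, adjusted p 0.00416) and Kcnk2 (-0.40, adjusted p 0.00734) fell, as did Kcnk12, the relative of Kcnk13 that passes little current (-0.74, adjusted p 0.00898).

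The 2 that rose were both scarce. Kcnk13 (ENSMUSG00000045404, chr12:99964499-100062682), the THIK1 channel that sets the resting potential of microglia, had 1.24, 1.33, 1.96 and 1.08 CPM in controls and 1.97, 3.14, 2.32 and 1.96 CPM in mutants. The lowest mutants lay just above control replicate 3 (log2 fold change 0.73 ± 0.25, adjusted p 0.0336). Kcnk6 (ENSMUSG00000046410, chr7:29221926-29232515), the TWIK2 channel that macrophages also use, had 1.24, 1.53, 1.66 and 0.937 CPM in controls and 2.01, 2.12, 2.39 and 1.81 CPM in mutants. There was no overlap here either (log2 fold change 0.63 ± 0.22, adjusted p 0.0408). Kcnk13 lost its call without mutant replicate 2 or control replicate 1, 2 or 4 (adjusted p up to 0.108), and Kcnk6 without mutant replicate 1, 2 or 3 or control replicate 1, 2 or 4 (up to 0.127), and DESeq2 did not call Kcnk6 (adjusted p 0.0562). The microglia markers summed to 171.9, 188.1, 174.2 and 163.8 CPM in mutants 1 to 4. Each of these sums exceeded the highest control sum, 130.2 CPM. The part of these markers in the Kcnk13, Kcnk6 and Kcna3 results was not tested.

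**Figure D4:**
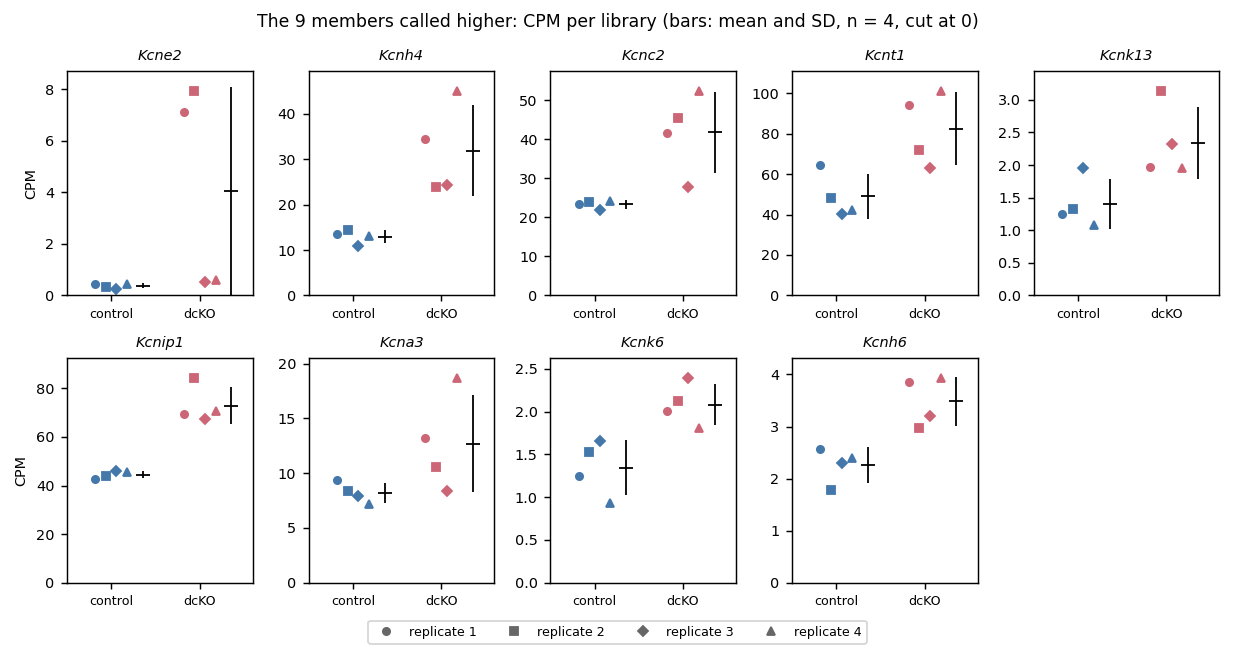
CPM (vertical axis, from 0) in each control and dcKO_hGFAP-Cre library for the 9 members that rose; marker shapes give the replicate and black bars the mean and SD (n = 4). The groups overlap for Kcnt1 and Kcna3, and for Kcne2 the mutants divide into 2 libraries at 7.10 and 7.92 CPM and 2 at 0.512 and 0.604 CPM.

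The Kcne genes encode small single-pass subunits, and the values of Kcne2 and Kcne1l turned on 1 or 2 libraries. Kcne2 (ENSMUSG00000039672, chr16:92292389-92298129), a subunit of epithelia such as the choroid plexus, had 0.4602, 0.345, 0.266 and 0.451 CPM in controls and 7.097, 7.92, 0.512 and 0.604 CPM in mutants. The first pair of mutants was far above the controls and the others only slightly (log2 fold change 3.38 ± 1.08, adjusted p 0.0444). The choroid plexus markers summed to 37.1 to 47.27 CPM in controls and 653, 1205, 51.07 and 27.44 CPM in mutants 1 to 4, and Ttr, the defining marker, was at 0.0664 to 9.37 CPM in controls and 584, 1128, 15.8 and 1.72 CPM in the mutants. Of the 5 markers 1 was called higher, and their part in the Kcne2 result was not tested. Without mutant replicates 1 and 2 the log2 fold change of Kcne2 was 0.56 with an adjusted p of 0.359. Its call was also lost without mutant replicate 1, mutant replicate 2 or any one control (adjusted p up to 0.12). Kcne1l (ENSMUSG00000090122, chrX:142304752-142306294) had 16.1, 14.9, 14.7 and 15.3 CPM in controls and 3.29, 3.86, 15.5 and 3.08 CPM in mutants. In mutant replicate 3 it was at the control level, and the gene was not called (log2 fold change -1.23 ± 0.54, adjusted p 0.116), whereas without that library the log2 fold change was -2.17 ± 0.14 (adjusted p 4.39e-07). Kcne4 was not called (-0.12).

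The Kv beta subunits (Kcnab), cytoplasmic partners of Kv1 channels, had 0 of 3 genes called by edgeR, by DESeq2 or at an unadjusted p under 0.05. Kcnab2 (ENSMUSG00000028931, chr4:152390742-152477871) was the most expressed per length at 10.1 RPKM in controls, with 50.8, 55.4, 60.1 and 58.9 CPM in controls and 52.4, 49.8, 52.03 and 48.4 CPM in mutants. Its ranges overlapped (log2 fold change -0.15 ± 0.08, adjusted p 0.153). Kcnab1 was not called (-0.34, adjusted p 0.235), but was without mutant replicate 3 (log2 fold change -0.58, adjusted p 0.0106). Kcnrg (ENSMUSG00000046168, chr14:61607457-61612826), a cytoplasmic regulator of Kv assembly, had 1.75, 2.71, 1.43 and 1.77 CPM in controls and 1.45, 1.48, 1.09 and 1.72 CPM in mutants, which overlapped (log2 fold change -0.40 ± 0.24, adjusted p 0.216). Of the 17 auxiliary members, 13 were tested, and 4 fell (30.8%) and 2 rose (15.4%). Of the 63 tested pore-forming members, 33 fell and 7 rose. Over all genes tested, 18.9% were lower and 18.6% higher, and the classes were not compared by a test.

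**Figure D5:**
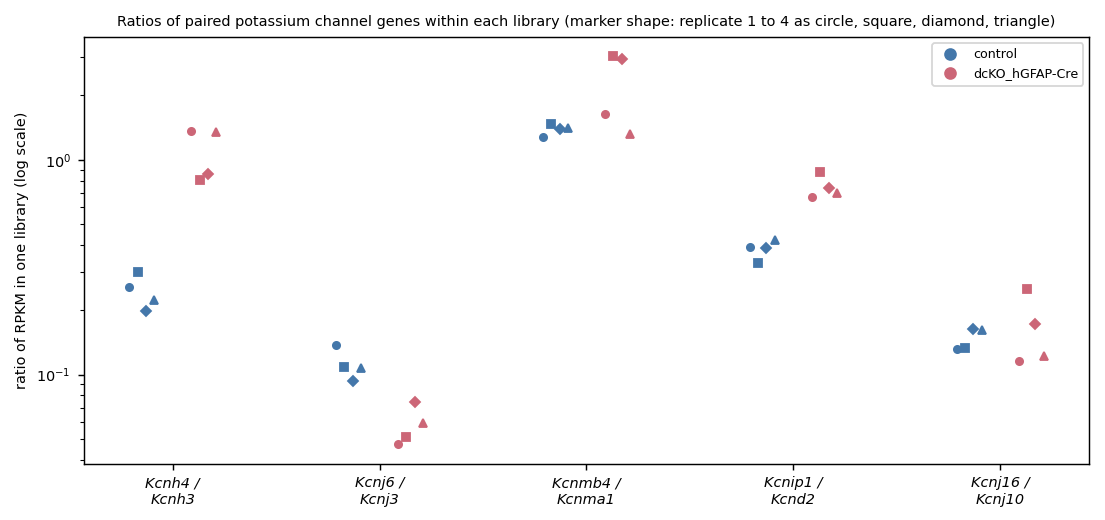
Ratio of RPKM between 2 members within each library (vertical axis, log scale) for 5 pairs, with controls in blue and dcKO_hGFAP-Cre in red; each point is a library and marker shapes give the replicate. Groups do not overlap for Kcnh4/Kcnh3, Kcnj6/Kcnj3 and Kcnip1/Kcnd2, and overlap for Kcnmb4/Kcnma1 and Kcnj16/Kcnj10.

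The remaining 15 members had too few counts for the test, with at most 16 in any library. They were Kcna7, Kcna10, Kcne1, Kcne3, Kcng4, Kcnj1, Kcnj15, Kcnk7, Kcnk15, Kcnk16, Kcnk18, Kcnmb1, Kcnmb3, Kcnn4 and Kcnv2. Kcnk16 had no count in any library, and Kcnk15 had 0 counts in each control and 3, 3, 1 and 2 counts in mutants 1 to 4. Kcnj15 had 7, 8, 9 and 8 counts in controls and 5, 4, 2 and 4 counts in mutants 1 to 4. For Kcnk15 and Kcnj15 the groups did not overlap in CPM (exact two-sided permutation p 0.0286, unadjusted), and for the other 13 they did.

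The genomic span of the members was compared by their call, without a test. Its median was 59.7 kb for the 37 that fell, 26.4 kb for the 9 that rose and 30.8 kb for the 30 not called, and over all genes it was 44.7 kb for those lower and 16.5 kb for those higher. In the pair of libraries of lane 6, all 37 members that fell and all 9 that rose had the same direction, and in that of lane 7 35 of 37 and 9 of 9 did. With the 4 libraries of lane 5 alone, 34 members were lower (45.3%, against 13.9% of all genes) and 5 higher (6.67%, against 11.8%). Libraries of each lane were part of the fit that made the calls, so agreement between lanes is no independent support. Exons of 27 members overlap another annotated gene, mostly on the opposite strand, and 17 of these were called, among them Kcnq5, Kcnma1, Kcnn1, Kcnk3, Kcnj6, Kcna6 and Kcnmb4. Of all members tested, with or without overlap, 60.5% were called, and of all genes tested 37.5%. Kcnk4 shares exons with Catsperz on the same strand. Because the strand setting of the counting is not given in the sources used here, reads of pairs on opposite strands cannot be told apart. No strand setting would separate a pair on the same strand.

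Partner genes were read from a list of 33 genes for channel complexes and potassium transport. Of 31 tested, 17 were lower (54.8%, against 18.9% of all genes tested) and 3 higher (9.68%, against 18.6%). The median was -0.33, against 0.02 over all genes. Among channel partners, Dpp10 (-0.70, adjusted p 4.02e-05), a subunit of Kv4 channels, and Lrrc55 (-0.69, adjusted p 0.000562), a BK subunit, fell, while Dpp6 was not called (-0.11). Cntn2, which gathers Kv1 channels on axons, was at 328.7 ± 18.6 CPM in controls and 146.5 ± 13.0 CPM in mutants (SD, n = 4) and fell (adjusted p 1.59e-06), whereas Cntnap2, its partner there, rose (0.64, adjusted p 6.59e-05). The hyperpolarization-activated channel genes Hcn2 (-0.26, adjusted p 0.032), Hcn3 (-0.45, adjusted p 0.0119) and Hcn4 (-0.55, adjusted p 0.0156) fell. Of the beta subunit genes of the sodium-potassium pump, Atp1b1 (-0.50, adjusted p 0.00086) and Atp1b2 (-0.91, adjusted p 0.00029) fell and Atp1b3 rose (0.25, adjusted p 0.0216). Of the potassium-chloride transporters, Slc12a7 fell (-0.74, adjusted p 0.00395) and the neuronal Slc12a5 was not called (0.25, adjusted p 0.141).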

How the data were processed

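Total RNA was extracted with TRIZOL from P3 cortex (dTel) of 4 control and 4 dcKO_hGFAP-Cre mice, and libraries were made with the TruSeq v2 kit. The authors mapped reads to the mm10 genome, assigned them to genes with featureCounts and deposited the raw counts, which are not normalized. The aligner, annotation, strand setting and handling of multi-mapped reads are not given in the sources used here. The study's own test was DESeq2.

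Of 48709 gene identifiers, 48349 were matched to GENCODE vM21 (the mm10 assembly). Members and lists were chosen with earlier results of these data known. All genes passing edgeR's filter (minimum count 10) were fitted in edgeR 4.0.16 (R 4.3.3) with TMM scaling and robust quasi-likelihood tests, 4 against 4 libraries with no block, and Benjamini-Hochberg adjustment over 16525 genes at 0.05. The fit was tested on simulated data. It narrowly missed the share of changed genes first required, and that requirement was then lowered and others were set on signs, fold changes and false calls, which edgeR without a block met. Exact permutation tests ran over the 70 arrangements of libraries. Values per library were given for called members of at least 1 CPM with the 12 largest rises or falls and for the member with the highest RPKM in each subfamily. Alternatives were DESeq2 1.42.0, its size factors, library totals, no filter, the replicate number or lane as a block, lane 5 alone and each library left out. Replicates differed by more than sampling noise (chi-square per degree of freedom 9.45 to 53.3), so none was merged, and each was taken as 1 animal. CpG counts and motifs came from RefSeq promoters. Some genes and sequences are not reported here, although they entered the fits and counts.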

Additional observations from a re-analysis of the deposited data

Results flagged for a closer look

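In a test for a single library far from the other 3 of its group (Dixon's test at the 95% level), 4 of the 68 groups of 4 libraries stood out, where chance alone gives about 3.4. Mutant replicate 3 accounted for 3 of them. Kcnj10 was at 42.92 CPM in that library and at 9.576 to 13.64 CPM in the other mutants. Kcnj16 was at 5.356 CPM against 1.087 to 1.737 CPM, and Kcne1l at 15.52 CPM against 3.079 to 3.856 CPM. The astrocyte and radial glia markers of the same library summed to 1712 CPM, against 692.7 to 804.3 CPM in the other mutants, and their part in these values was not tested. The fourth was Kcnj10 in control replicate 2, at 72.31 CPM against 63.73 to 64.2 CPM in the other controls.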

How the results depend on the processing

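Of the 46 called members, 33 kept their call in all 8 fits that left out 1 library, and 0 changed sign under any alternative run. The members called lower numbered 37 with DESeq2 and with its size factors, 32 with library totals, 33 with no filter, 39 with the lane as a block and 34 with lane 5 alone, and ranged from 29 to 37 when each library was left out. Members called higher were 8, 9, 12, 8, 9 and 5 under the same settings and ranged from 4 to 9 when each library was left out. With the replicate block the counts were 8 higher and 35 lower, of which 8 and 34 were called without it. Kcnd2, Kcns2, Kcnmb2 and Kcne2 lost their call under it and Kcnj11 gained one. Same-numbered libraries shared a lane, but numbers 1 and 2 were both on lane 5, and same-numbered mice correlated at 0.17, -0.07, 0.21 and -0.02 in their deviations from the group means, so the numbers were not taken to pair the mice. Without mutant replicates 1 and 2, which had the highest Ttr and were set aside after seeing the data, 3 members were higher and 21 lower. Of all genes, 8.06% were higher and 9.18% lower in that fit. Over all genes, 1951 were higher with lane 5 alone against 3074 with all lanes. The share lower was 20.2% with DESeq2, 19.2% with its size factors, 12.7% with library totals and 9.87% with no filter. It was 19.6% with the lane as a block and 13.9% with lane 5 alone. Shares higher were 19.2%, 18.4%, 27.7%, 10.2%, 19.4% and 11.8% in the same order. When each library was left out, 13.3% to 20.1% of all genes were higher and 14.3% to 19.8% lower. Library totals moved the median of all genes from 0.02 to 0.15 and that of the members from -0.35 to -0.23, which changed the sign of the Kv1 and Kcne medians. The other settings that use fewer libraries test with less depth and fewer degrees of freedom. Members under about 1 CPM rest on few counts.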
